A study of Arabidopsis thaliana with 24 samples.

Results

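The 59 loci described here encode proteins of the large (60S) subunit of the cytosolic ribosome of Arabidopsis thaliana, from RPL3 to RPL35a with the stalk proteins RPP0 and RPP1. They were chosen by name out of the 32833 loci for which read counts were given, with earlier results of these data known. They fall into 28 families. Of these families, 13 have 2 of the loci, 9 have 3 and 6 have 1. Further copies of some families (among them a second RPL14 locus and 2 further RPL11 loci) belong to a separate list of 33 other loci of the 60S subunit, so shares given below are shares among the 59 loci and not of every copy in the genome.

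The large subunit holds the peptidyl transferase centre and the tunnel through which the new chain leaves, and each ribosome carries 1 copy of nearly every large subunit protein. In plants most of these proteins are encoded by several loci, and mutants of single copies of some of them show pointed leaves or altered vascular and flower development. Transcription and translation of ribosomal protein genes are known to depend on the protein kinase TOR, and auxin induces the divisions of pericycle cells from which lateral roots form.

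RNA was sequenced from 24 root libraries in 8 groups of 3. The groups crossed 2 genotypes with 2 hormone treatments and with estradiol or its solvent, to ask how the response of roots to auxin during the synchronous induction of lateral roots changes when TOR is knocked down. The transgenic line, given as UB10pro>>amiR-TOR and UB10pro_amiR-TOR, carries an artificial microRNA against TOR under UB10pro that estradiol induces (amiR-TOR below). The wild type was Col-0. Seedlings of all groups were moved 7 d after germination to 10 µM NPA, an inhibitor of auxin transport, for 24 h. They spent another 24 h on 10 µM NPA with either 10 µM estradiol or its solvent DMSO. The IAA groups were then shifted to 10 µM IAA, the natural auxin, and the NPA groups stayed on their plates, with estradiol or solvent continued, and roots were harvested 6 h later. The groups are thus amiR-TOR and Col-0, each on IAA with estradiol, on IAA with solvent, on NPA with estradiol and on NPA with solvent. Every library pooled about 200 segments from the lower part of seedling roots. The sources used here do not state whether amiR-TOR was 1 transgenic line, nor whether libraries of a group came from separate plantings, so p-values measure the spread between these libraries, which may be technical.

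The knock-down was visible in the target. TOR (AT1G50030) had 24.6, 27.9 and 26.8 CPM (counts scaled to a common library size, with TMM factors) in amiR-TOR on IAA with estradiol and 62.4, 57.6 and 70.1 CPM with solvent. On NPA it had 33.3, 21.9 and 25.8 CPM in amiR-TOR with estradiol and 52.3, 64.1 and 54.3 CPM with solvent. With estradiol it was lower in every amiR-TOR library than in any solvent library, by a log2 fold change of -1.27 ± 0.15 (SE) on IAA and -1.08 ± 0.15 on NPA (edgeR quasi-likelihood test, adjusted p = 9.83e-06 and 2.37e-05). In Col-0 it was not called under estradiol, at 0.29 ± 0.15 on IAA and 0.12 ± 0.15 on NPA.

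The counts assigned to genes lay between 8589833 and 40494513 per library. In 19 libraries 1.56% to 12.05% of reads were unmapped. In the other 5, 25.8% to 47.6% were. From amiR-TOR these comprise replicate 1 given IAA plus estradiol, and from Col-0 replicates 2 and 3 given IAA plus estradiol, replicate 1 given IAA plus solvent and replicate 1 kept on NPA plus solvent. Counts of calls without these 5 libraries, a choice made after seeing the data, are given beside the counts of all 59 loci. The 6 root markers (among them the epidermal regulator WER and the endodermal regulators SCR and SHR) summed to between 89.7 CPM in Col-0 on IAA with estradiol and 203.5 CPM in amiR-TOR on NPA with estradiol, as group means. The 4 markers of green tissue averaged 9.32 CPM in amiR-TOR on IAA with estradiol (7.49 to 11.9 CPM over the libraries), 56.7 CPM on IAA with solvent (37.9 to 68.7), 24.5 CPM on NPA with estradiol (12.8 to 42.3) and 102.1 CPM on NPA with solvent (95.3 to 113.2). In Col-0 they averaged 25.7 CPM (15.9 to 32.0), 31.4 CPM (23.3 to 42.0), 81.8 CPM (47.8 to 111.0) and 128.7 CPM (107.1 to 139.7) in the same order of treatments. Their sum was thus lower on IAA than on NPA in each setting, and highest in Col-0 on NPA with solvent, where the sum of the 59 loci was lowest. The single markers differed in amiR-TOR with solvent, where 2 of the 4 had a positive log2 fold change on IAA and 2 a negative one. All 4 were negative in the other settings. Both seed storage markers were at 0 in all 24 libraries. The 10 markers of dividing cells (cyclins, mitotic kinases, KNOLLE and MCM proteins) averaged 247.5 CPM in amiR-TOR on IAA with estradiol, 235.0 CPM on IAA with solvent, 218.4 CPM on NPA with estradiol and 127.5 CPM on NPA with solvent. In Col-0 they averaged 287.0, 294.3, 147.9 and 90.5 CPM in the same order of treatments. These root segments are mixtures of cell types, and in such samples fewer cells of a type and less RNA per cell cannot be told apart. The part of the dividing cells in the results below was not tested.

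Every locus of the 59 was counted in every library, the fewest being 98 counts for AT2G40010 in 1 Col-0 library on NPA with solvent, and all passed the filter on low counts. Together they took 1.19% to 4.07% of the counts of a library. The highest levels per kb of exon, as means over the 24 libraries, were 1153 CPM per kb for the RPL14 locus AT4G27090, 1057 for AT1G02780 (RPL19, which reaches across to the small subunit) and 868 for AT1G67430 (RPL17, which lines the exit tunnel). The lowest were 13.0 CPM per kb for AT2G40010 (RPP0, the base of the stalk that binds translation factors), 41.6 for AT1G26910 (RPL10, a protein that joins late in subunit assembly) and 54.0 for AT1G61580 (RPL3, close to the peptidyl transferase centre). AT4G27090 was the highest and AT2G40010 the lowest of the 59 in each of the 8 groups. The ratio of their levels per kb lay between 57.9 in Col-0 on IAA with estradiol and 185.0 in Col-0 on NPA with solvent.

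Summed over paralogs, the levels of families were closer together than those of loci. The highest family sums were 1491 CPM per kb for RPL19, 1251 for RPL10 and 1221 for RPL17. The lowest were 169 CPM per kb for RPL11, 299 for RPL13a and 377 for RPL21. RPL11 binds the 5S rRNA together with RPL5, and 2 further copies of it stand outside the 59 loci. RPL13a and RPL21 each rest here on 1 locus, and loci with the same product names stand in the separate list of other 60S loci. These low sums are thus sums among the 59 loci and not over every copy. Within families 1 copy often dominated. AT3G09200 was 41.5 times as abundant per kb as AT2G40010 among the RPP0 loci, AT1G14320 15.1 times as abundant as AT1G26910 among the RPL10 loci, and AT1G43170 11.5 times as abundant as AT1G61580 in RPL3. By contrast the 2 RPL7a loci and the 2 RPL23a loci stood at ratios of 1.025 and 1.002. Such ratios depend on exon length, taken over all annotated exons of a locus. The RPL23a loci AT2G39460 and AT3G55280 have 465 coding bases each but 1592 and 907 bases of exon. Without division by length they stood at 481.7 and 273.8 CPM. In RPL6 and RPL12 the most abundant copy differs between CPM and CPM per kb. The RPL9 loci AT1G33120 and AT1G33140 share 99.2% of their coding sequence and encode identical proteins. Reads that fit several places were counted apart from the genes (1.43% to 3.04% of the reads of a library). Both copies, and with them the RPL9 sum, may thus be undercounted.

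**Figure D1:**
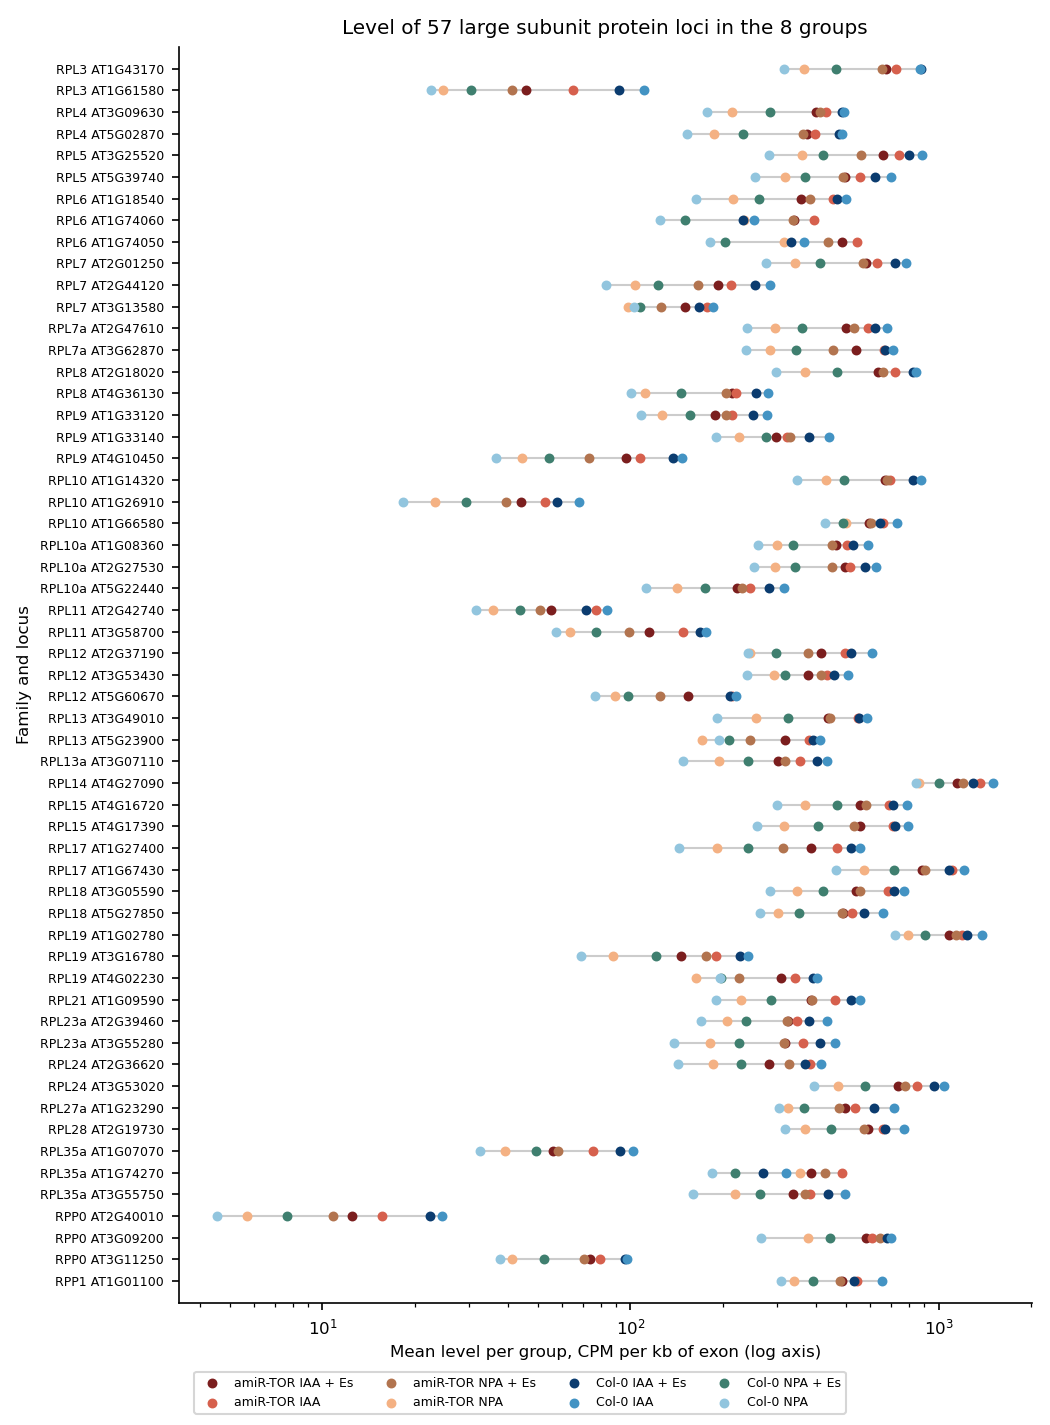
Mean level of 57 of the 59 loci in the 8 groups of 3 libraries, in CPM per kb of exon on a log axis, with 1 row per locus and 1 point per group. In nearly every row Col-0 on IAA is the rightmost point and Col-0 on NPA the leftmost, and AT2G40010 at 13.0 CPM per kb lies far below the other loci.

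The large subunit loci were higher after the shift to IAA than on NPA in 3 of the 4 settings, and in amiR-TOR with estradiol, where the microRNA was induced, few loci were called. The shift added IAA, took away NPA and moved the roots to other plates in 1 step, while the NPA groups stayed on theirs, so these cannot be told apart, and the IAA response below stands for the whole shift. In amiR-TOR with estradiol, 2 of the 59 loci were called higher on IAA and 0 lower, and the median log2 fold change was 0.01 (range -0.27 to 0.45); 20.6% of the 21290 tested loci were called higher. In amiR-TOR with solvent, 59 of 59 were called higher, with a median of 0.95 and a range of 0.40 to 1.47, where 29.3% of all tested loci were. In Col-0 with estradiol, 58 of 59 were called higher, with a median of 0.76, beside 29.9% of all loci. In Col-0 with solvent, 59 of 59 were called higher, with a median of 1.45 and a range of 0.77 to 2.41, beside 31.3% of all loci. The median over all tested loci lay between -0.04 and 0.02 in these 4 comparisons. The sign of the median of 0.01 depends on the scaling, since RLE size factors gave -0.05.

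The count of 2 in amiR-TOR with estradiol was 1 without replicate 1 or replicate 3 on NPA with estradiol and was 4 without replicate 2. Group by group, the summed level was 27740 ± 817 CPM in amiR-TOR on IAA with estradiol and 27450 ± 2630 CPM on NPA with estradiol (SD, n = 3 each). With solvent it was 31840 ± 849 CPM on IAA and 17390 ± 1250 CPM on NPA. In Col-0 with estradiol it was 33680 ± 2580 CPM on IAA and 20260 ± 1150 CPM on NPA, and with solvent 36770 ± 5490 CPM on IAA and 14330 ± 2480 CPM on NPA. The IAA and NPA libraries did not overlap except in amiR-TOR with estradiol. There the IAA libraries (26889 to 28520 CPM) lay inside the range of the NPA libraries (24783 to 30043 CPM). In every group that held libraries of high unmapped share, these had the highest sums of the group. In Col-0 with solvent such a library stood at 41544 CPM on IAA, beside 30768 and 38001 CPM. On NPA with solvent it stood at 16738 CPM, beside 11787 and 14469 CPM. The part of the unmapped share in the results was not tested. Without the 5 libraries of high unmapped share the counts of loci called higher were 1, 59, 51 and 59, in the order in which the settings are given above. In that order, 3, 3, 5 and 3 of the 6 root markers were called lower on IAA and 0, 2, 0 and 0 higher. Of the 4 markers of green tissue, 1, 1, 2 and 3 were called lower and 0, 1, 0 and 0 higher. The part of either list in the result was not tested. Col-0 on IAA with solvent had the highest group mean for 55 of the 59 loci and Col-0 on NPA with solvent the lowest for 56.

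**Figure D2:**
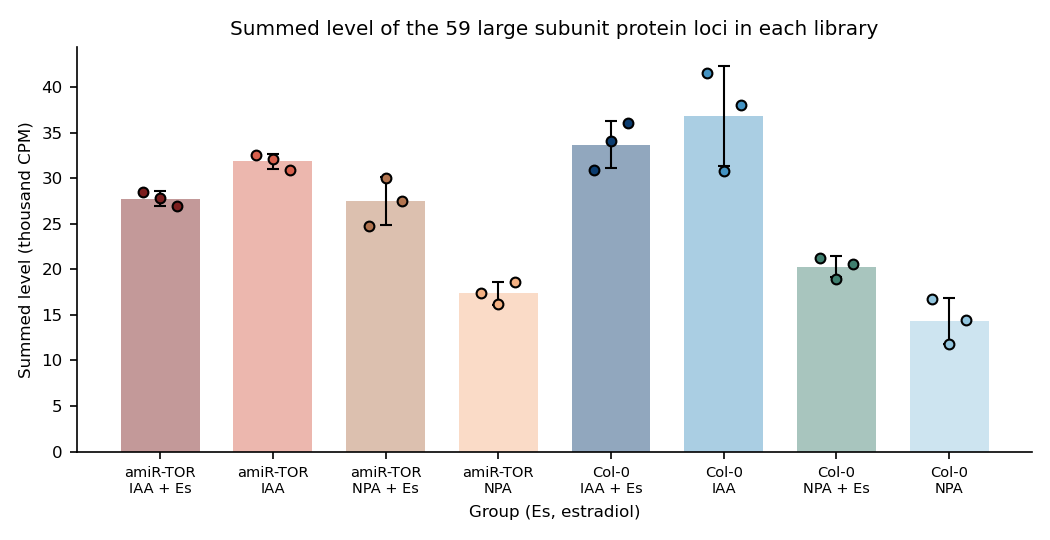
Summed level of the 59 loci in CPM, scaled as the axis marks, for each library (points), with the mean (bar) and SD (line) of the 3 libraries of each group. The means of amiR-TOR with estradiol are alike on IAA and on NPA, at 27740 and 27450 CPM, while the other IAA groups lie above their NPA groups.

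The loci that rose most were scarce copies. AT2G40010, the rare RPP0 copy, had 38, 34.7 and 35.2 CPM in Col-0 on IAA with solvent and 8.99, 5.82 and 5.39 CPM on NPA, a log2 fold change of 2.41 ± 0.16 (SE; edgeR quasi-likelihood test, adjusted p = 8.79e-12). In Col-0 with estradiol it had 27.8, 34.4 and 37.2 CPM on IAA and 11.4, 10.6 and 12.1 CPM on NPA. These IAA and NPA libraries are far apart both with solvent and with estradiol. In amiR-TOR with solvent it had 25.7, 18.6 and 24.8 CPM on IAA and 8.14, 7.61 and 9.47 CPM on NPA, and with estradiol 19.6, 17.1 and 18.7 CPM on IAA and 15.9, 17.1 and 14.9 CPM on NPA. With solvent these libraries are separate, and with estradiol they overlap, where the change of 0.21 ± 0.15 was not called (adjusted p = 0.288). The changes in the other settings were 1.47 ± 0.16 in amiR-TOR with solvent (adjusted p = 4.71e-08) and 1.54 ± 0.15 in Col-0 with estradiol (adjusted p = 9.32e-09).

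AT1G61580, the scarce RPL3 copy, had 63.3, 74.0 and 66.7 CPM in amiR-TOR on IAA with estradiol and 54.0, 63.4 and 66.7 CPM on NPA with estradiol. With solvent it had 93.7, 95.3 and 101 CPM on IAA and 39.99, 35.0 and 34.5 CPM on NPA. In Col-0 it had 139, 129 and 141 CPM on IAA and 42.4, 40.9 and 52.6 CPM on NPA with estradiol, and 179, 147 and 168 CPM on IAA and 36.7, 30.9 and 32.5 CPM on NPA with solvent. The amiR-TOR libraries with estradiol overlap between IAA and NPA, and the other pairs of groups are separate. The log2 fold changes were 0.15 ± 0.11 in amiR-TOR with estradiol (adjusted p = 0.297), 1.41 ± 0.11 with solvent (adjusted p = 3.23e-10), 1.59 ± 0.11 in Col-0 with estradiol (adjusted p = 3.05e-11) and 2.30 ± 0.11 with solvent (adjusted p = 5.76e-14).

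AT4G10450, the scarcest RPL9 copy, had 266, 183.2 and 235 CPM in Col-0 on IAA with solvent and 73.1, 42.4 and 54.3 CPM on NPA with solvent. Its log2 fold change there was 2.01 ± 0.17 (adjusted p = 4.82e-10), and with estradiol it was 1.34 ± 0.16 (adjusted p = 2.90e-07). In amiR-TOR with estradiol it had 155, 150.4 and 143 CPM on IAA and 101, 127 and 112 CPM on NPA. Those libraries do not overlap, but the change of 0.40 ± 0.16 missed the threshold at an adjusted p of 0.0539.

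In amiR-TOR with solvent the largest rise after those of AT2G40010 and AT1G61580 was that of AT1G27400, the scarcer copy of the tunnel protein RPL17. It had 465, 483 and 441 CPM there on IAA and 179, 170.3 and 221 CPM on NPA, a change of 1.28 ± 0.15 (adjusted p = 1.58e-07). The 2 loci called in amiR-TOR with estradiol were AT4G02230 (RPL19) and AT5G23900 (RPL13). AT4G02230 had 302, 286 and 259 CPM on IAA and 182, 235 and 201 CPM on NPA, a change of 0.45 ± 0.12 (adjusted p = 0.00485). AT5G23900 had 314, 299 and 290.1 CPM on IAA and 205, 263 and 223 CPM on NPA, a change of 0.38 ± 0.12 (adjusted p = 0.0136). For both loci the 2 sets of libraries do not overlap. The call of AT5G23900 was lost without replicate 1 or replicate 3 of amiR-TOR on NPA with estradiol, and without the 5 libraries of high unmapped share (log2 fold change 0.35, adjusted p = 0.0531).

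At the other end, AT1G66580 (RPL10, listed as SAG24) rose least in Col-0 with solvent, by 0.77 ± 0.12 (adjusted p = 4.25e-06), with 968, 730.3 and 825 CPM on IAA and 479, 451 and 551 CPM on NPA. These libraries do not overlap. AT1G74270 (RPL35a) was the exception in Col-0 with estradiol, at 0.31 ± 0.18 (adjusted p = 0.153). The highest locus of all, AT4G27090 (RPL14), was also among those with the smallest changes: 0.84 ± 0.15 in Col-0 with solvent and 0.37 ± 0.14 with estradiol (adjusted p = 2.75e-05 and 0.0322). Its call with estradiol was lost in 4 of the 6 fits without 1 library.

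By position in the subunit, the response was broad. Summed by family in Col-0 with solvent, the log2 ratio of IAA to NPA ran from 0.84 (RPL14) to 1.57 (RPL4, another tunnel protein). In amiR-TOR with estradiol the family sums ran from -0.13 (RPL35a) to 0.19 (RPL11), with a median of 0.004. Stalk proteins, 5S rRNA binders and tunnel proteins all took part in Col-0 with solvent, where the ratios were 1.42 for RPP0, 1.09 for RPP1, 1.27 for RPL12, 1.56 for RPL5, 1.55 for RPL11 and 1.54 for both RPL17 and RPL23a.

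Estradiol was followed by different changes on NPA and on IAA. On NPA it was followed by higher levels in both genotypes: 55 of 59 loci were called higher in amiR-TOR (median 0.68; 20.0% of all tested loci) and 44 of 59 in Col-0 (median 0.54; 12.4% of all loci), and 0 were called lower. On IAA, 4 of 59 were called lower and 0 higher in amiR-TOR (median -0.20; 9.9% of all loci were called lower), and 0 of 59 were called in Col-0 (median -0.13; 1.02% of all loci). In that last comparison 1 locus had an unadjusted p under 0.05 with edgeR, and DESeq2 called 0. Without the 5 libraries of high unmapped share, the counts were 58 higher in amiR-TOR and 52 higher in Col-0 on NPA, 10 lower in amiR-TOR on IAA and 0 in Col-0 on IAA. The count in amiR-TOR on IAA was 2 without replicate 2 or 3 with estradiol and 2 without replicate 1 or 3 with solvent, and DESeq2 called 14. The estradiol effect in Col-0, which carries no microRNA against TOR, was in the same direction as in amiR-TOR on NPA.

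The 3 largest rises with estradiol on NPA in amiR-TOR were those of AT3G16780 (RPL19) and of both RPL4 loci. AT3G16780 had 178, 215 and 194 CPM with estradiol and 98.4, 87.8 and 108 CPM with solvent, a change of 1.00 ± 0.13 (adjusted p = 1.00e-05). In Col-0 on NPA it had 131, 124 and 149 CPM with estradiol and 96.3, 61.5 and 73.0 CPM with solvent, a change of 0.81 ± 0.13 (adjusted p = 0.000344). The libraries do not overlap in either genotype. AT5G02870 (RPL4) had 544, 667 and 589 CPM with estradiol and 307, 299.7 and 318 CPM with solvent in amiR-TOR, a change of 0.96 ± 0.10 (adjusted p = 5.93e-07). AT3G09630 (RPL4) had 632, 749 and 656 CPM with estradiol and 347, 333 and 375 CPM with solvent, a change of 0.95 ± 0.10 (adjusted p = 6.22e-07). The libraries of both RPL4 copies are far apart between estradiol and solvent.

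In Col-0 on NPA the loci with the next largest rises were AT3G49010 (RPL13, listed as BBC1) and AT2G40010. AT3G49010 had 514, 436 and 543 CPM with estradiol and 321, 246 and 314 CPM with solvent, a change of 0.76 ± 0.13 (adjusted p = 0.000536). AT2G40010 changed by 0.75 ± 0.16 (adjusted p = 0.00225); counted without regard to strand its call was lost (0.42, adjusted p = 0.3), and a gene on the opposite strand overlaps it. The paralogs AT5G23900 (RPL13) and AT4G02230 (RPL19) had changes of 0.11 and 0.01 in the same comparison, neither called (adjusted p = 0.569 and 0.981).

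On IAA, the loci lower with estradiol in amiR-TOR were both RPL11 loci, AT1G61580 (RPL3) and AT3G16780 (RPL19). AT1G61580 changed by -0.51 ± 0.11 (adjusted p = 0.00214). AT2G42740 (RPL11) had 49.8, 45.8 and 44.5 CPM with estradiol and 66.2, 65.9 and 64.8 CPM with solvent, a change of -0.49 ± 0.11 (adjusted p = 0.00386). Its paralog AT3G58700 changed by -0.36 ± 0.12 (adjusted p = 0.031), and AT3G16780 by -0.38 ± 0.13 (adjusted p = 0.0441). The libraries of AT2G42740 do not overlap. The call of AT3G16780 was lost when any 1 of the 6 libraries was left out, and that of AT3G58700 in 4 of the 6 fits without 1 library. While 4 loci passed the test, 38 of 59 had all 3 estradiol libraries below all 3 solvent libraries, against 18.9% of all tested loci. The loci share the same 6 libraries and their scaling, so these are not 38 separate observations.

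The interaction of IAA and estradiol, that is whether the IAA response differs between estradiol and solvent, was called in both genotypes and only with a negative sign. In amiR-TOR 54 of 59 loci were called lower (median -0.89), beside 7.58% of all tested loci, and in Col-0 39 of 59 (median -0.69), beside 6.73%. Without the 5 libraries of high unmapped share these counts were 56 and 38. The count in Col-0 was 24 without replicate 1 on IAA with solvent, 25 without replicate 2 on NPA with solvent, and 21 when only the 4 Col-0 groups were fitted. The largest values in amiR-TOR were -1.38 ± 0.19 for AT3G16780 (RPL19, adjusted p = 0.000125), -1.27 ± 0.25 for AT2G36620 (RPL24, adjusted p = 0.00205) and -1.26 ± 0.22 for AT2G40010 (RPP0, adjusted p = 0.000733).

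Whether the difference between the genotypes itself passed a test is a separate question, and it did not. The interaction of all 3 factors was called for 0 of 59 loci by edgeR, with 5 at an unadjusted p under 0.05, and for 0 by DESeq2; 0.719% of all tested loci were called. Its median over the 59 loci was -0.21, and 58 of 59 values were negative. These loci share the same 24 libraries, so their common sign is not 59 separate observations. Genotype and estradiol interacted for 0 of 59 loci on IAA (edgeR; 0 at an unadjusted p under 0.05, DESeq2 0) and for 0 on NPA (edgeR; 4 at an unadjusted p under 0.05, DESeq2 1). Of all tested loci 9.17% were called on IAA and 2.62% on NPA. The IAA response was thus smaller with estradiol in both genotypes, and none of the 59 loci was called by edgeR as different between the genotypes in that respect.

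**Figure D3:**
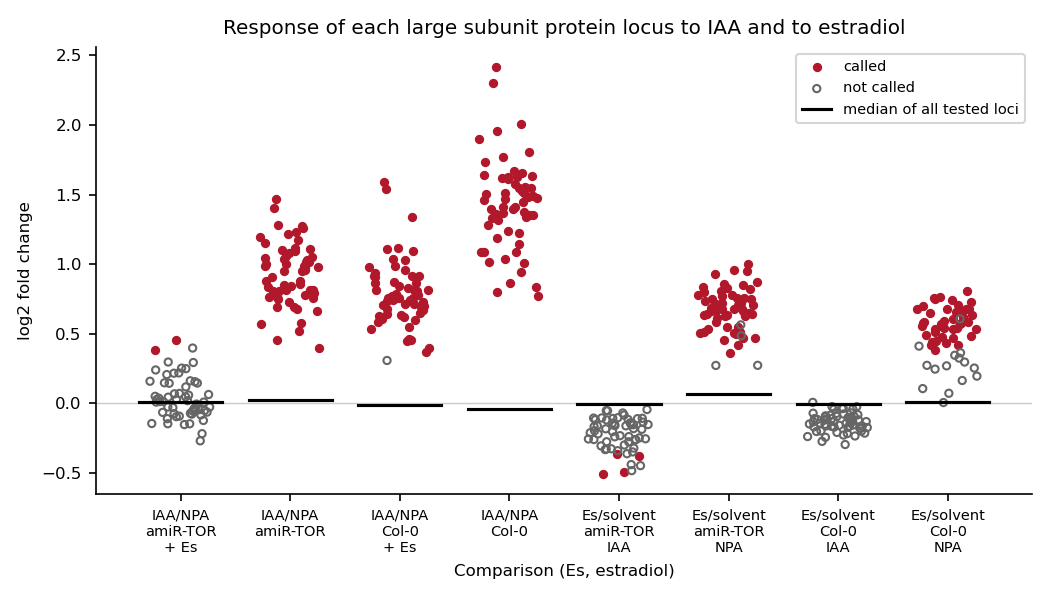
Log2 fold change of each of the 59 loci (points, filled where called) for IAA over NPA and for estradiol over solvent (Es) in both genotypes, with the median of all tested loci as a black line. The points of IAA over NPA in amiR-TOR with estradiol scatter around 0 (median 0.01), while they lie at medians of 0.95, 0.76 and 1.45 in the other 3 settings.

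Set against Col-0 directly, the median log2 fold change of amiR-TOR was above 0 on NPA and below 0 on IAA. With estradiol on IAA, 3 of 59 loci were called higher and 29 lower (median -0.34); of all tested loci 19.5% were called higher and 17.7% lower. With solvent on IAA, 3 were called higher and 4 lower (median -0.26; 8.52% and 4.11% of all loci). On NPA 41 were called higher with estradiol (median 0.41; 17.6% of all loci) and 12 with solvent (median 0.28; 10.7% of all loci), and 0 lower. These comparisons depend on single libraries. On IAA with estradiol the count of called loci was 16 and 12 without replicate 2 or 3 of amiR-TOR, and 14 and 10 without replicate 2 or 3 of Col-0. On IAA with solvent it was 4, 3 and 4 without replicate 1, 2 or 3 of amiR-TOR, and 20 and 4 without replicate 2 or 3 of Col-0. On NPA with estradiol it was 18 and 26 without replicate 2 or 3 of amiR-TOR, and 16 without replicate 2 of Col-0. On NPA with solvent it was 4 without replicate 1 or 3 of amiR-TOR, and 36, 4 and 5 without replicate 1, 2 or 3 of Col-0. Without the 5 libraries of high unmapped share the counts were 7, 5, 47 and 36.

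The largest falls on IAA with estradiol were again those of scarce copies. AT1G61580 (RPL3) changed by -1.004 ± 0.11 (adjusted p = 4.63e-07), AT2G40010 (RPP0) by -0.84 ± 0.15 (adjusted p = 0.000138) and AT1G07070 (RPL35a) by -0.73 ± 0.21 (adjusted p = 0.011). AT1G07070 had 40.5, 40.7 and 33.4 CPM in amiR-TOR and 59.5, 67.0 and 63.6 CPM in Col-0, with no overlap, but its call was lost without replicate 3 of amiR-TOR. With solvent on IAA the largest falls were -0.77 ± 0.11 for AT1G61580 (adjusted p = 6.20e-05), -0.63 ± 0.15 for AT2G40010 (adjusted p = 0.00716) and -0.34 ± 0.11 for AT4G36130 (RPL8, adjusted p = 0.0415). AT4G36130 had 290.0, 258 and 269.9 CPM in amiR-TOR and 363, 327 and 349 CPM in Col-0. Its libraries do not overlap, but 5 of the 6 fits without 1 library lost its call. The call of AT2G40010 with solvent was lost without replicate 2 of amiR-TOR and when strand was disregarded (adjusted p = 0.0973).

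Only 3 of the 59 loci were called higher in amiR-TOR in all 4 of these comparisons, AT1G74060 and AT1G74050 (neighbouring RPL6 loci) and AT1G74270 (RPL35a), and they lie close together on chromosome 1. AT1G74060 had 570.4, 555 and 561 CPM in amiR-TOR and 369.8, 392 and 392 CPM in Col-0 on IAA with estradiol, and 392, 347 and 418 CPM in amiR-TOR and 215, 166 and 237 CPM in Col-0 on NPA with solvent. Its log2 fold changes were 0.55 ± 0.13, 0.65 ± 0.13, 1.16 ± 0.13 and 0.90 ± 0.13 on IAA with estradiol, IAA, NPA with estradiol and NPA. The adjusted p-values were 0.00255, 0.00245, 1.10e-06 and 8.44e-05 in that order. The genotypes do not overlap in any treatment. On IAA with estradiol AT1G74050 had 618, 614 and 593 CPM in amiR-TOR and 376, 442 and 430.2 CPM in Col-0, and AT1G74270 had 282, 254 and 222 CPM in amiR-TOR and 157, 189 and 184 CPM in Col-0. Both sets of libraries are separate. AT1G74050 changed by 0.55, 0.57, 1.11 and 0.80 in the same order, and AT1G74270 by 0.52, 0.60, 0.97 and 0.94. The calls of AT1G74270 on IAA did not hold in every fit without 1 library: 4 of 6 lost it with estradiol and 5 of 6 with solvent.

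Their neighbours moved with them. The 3 loci lie within an interval of 1100 kb (chr1:27450001-28550000 of assembly TAIR10.1), whose borders were set after seeing the values: it joins neighbouring bins of 50 kb in which the median log2 fold change, averaged over the 4 comparisons, was over 0.4. Of 295 tested loci in it other than the 3, 205, 230, 218 and 224 were called higher in amiR-TOR on IAA with estradiol, IAA, NPA with estradiol and NPA (69.5%, 78%, 73.9% and 75.9%), and their median log2 fold changes were 0.78, 0.82, 0.88 and 0.81. The same 4 comparisons set the borders, so the high values inside follow in part from that rule. In flanks on either side that start 50 kb beyond the borders, of 122 and 112 tested loci, the medians lay between -0.11 and 0.002. The cause was not tested. Outside the interval, 0 of the other 56 large subunit loci were called higher and 29 lower on IAA with estradiol, 0 higher and 4 lower on IAA, 38 higher on NPA with estradiol and 9 higher on NPA. Within the families the interval shows as a shift of shares: AT1G74270 made up 49.5% of the RPL35a level per kb in amiR-TOR and 33.7% in Col-0 on IAA with estradiol, and the RPL6 copy outside the interval, AT1G18540, 30.3% in amiR-TOR and 45.4% in Col-0.

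**Figure D4:**
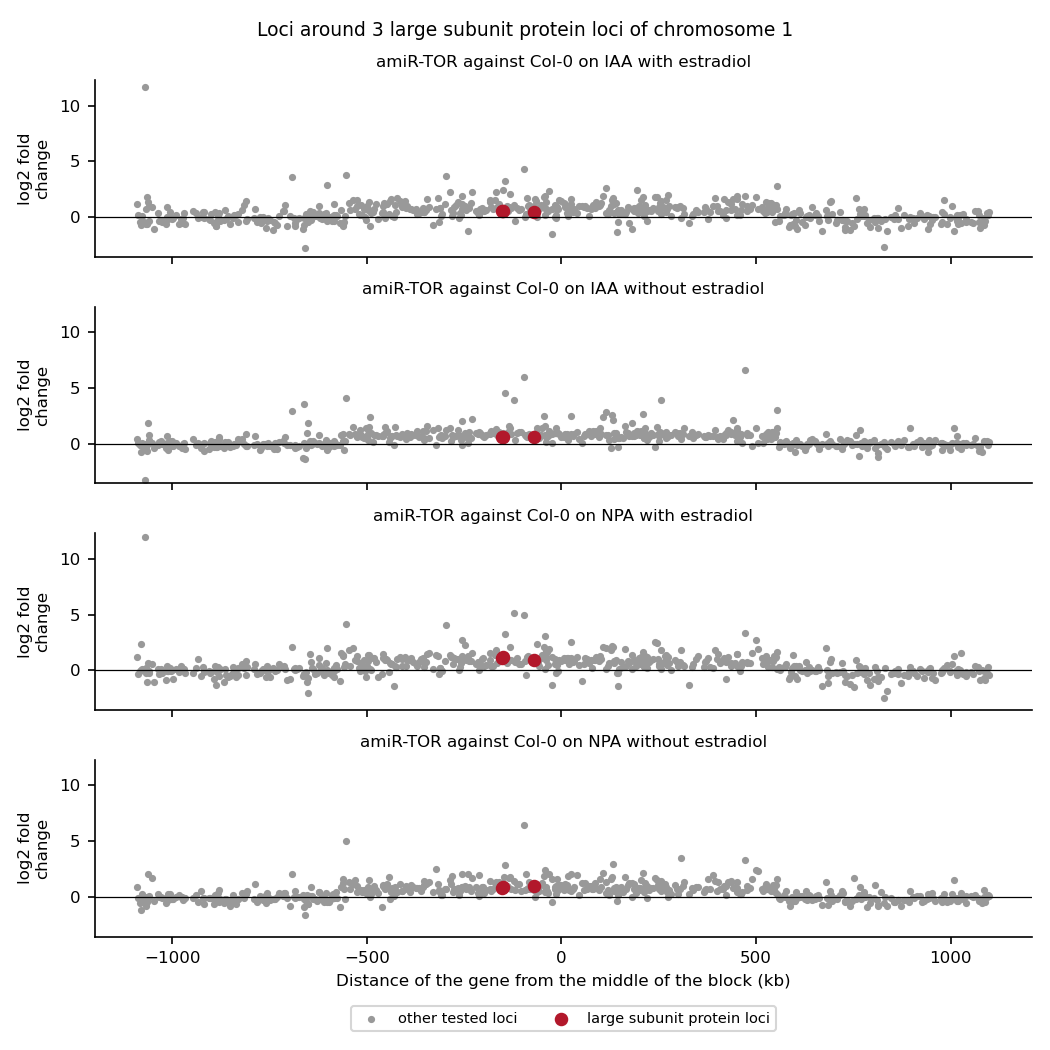
Log2 fold change of amiR-TOR over Col-0 for tested loci on chromosome 1 around an interval of 1100 kb, in 4 treatments, against the distance of each gene from the middle of the interval in kb. Grey points inside the interval lie mostly above 0 (medians 0.78 to 0.88) and return to around 0 outside it, and the large subunit loci (red) lie among them. The borders of the interval were set from these values.

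The other genes of cytosolic ribosomes were mostly called higher on IAA in the same 3 settings. Of the other 60S loci, 3 of 32 tested were called higher on IAA in amiR-TOR with estradiol, against 31 with solvent, 29 in Col-0 with estradiol and 31 with solvent; 1 was called lower in each of the Col-0 settings. Of 13 loci of the small (40S) subunit, 0 were called in amiR-TOR with estradiol (edgeR; 1 at an unadjusted p under 0.05; DESeq2 0) and 13 were called higher in each of the other 3 settings. Of 10 loci of the plastid 50S subunit, which is made for another compartment, 2, 1, 3 and 5 were called higher in the same order. DESeq2 called 0, 1, 3 and 3 of them, in either direction. Of all tested loci 20.6%, 29.3%, 29.9% and 31.3% were called higher by edgeR in these settings.

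Nucleolar factors of ribosome assembly were called higher on IAA in all 4 settings, with 1 exception. Of 14 such loci (among them nucleolin and fibrillarin genes), 13 were called higher on IAA in amiR-TOR with estradiol (median 0.76) and 14 in each of the other settings, with medians of 1.71, 1.66 and 2.33. The medians of the 59 loci in the same comparisons were 0.01, 0.95, 0.76 and 1.45, and the difference between the lists was not tested. The markers of dividing cells were called higher on IAA in 3, 7, 7 and 10 of 10 cases in that order, and with estradiol on NPA in 10 of 10 in both genotypes. On IAA DESeq2 called 6, 7, 7 and 10 of them, in either direction.

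Copies of the same protein did not respond equally to the shift to IAA. For each of the 40 pairs of paralogs in 22 families, the log2 ratio of the 2 copies within a library was compared between IAA and NPA. This was done inside each combination of genotype with estradiol or solvent, by a two-sided exact permutation test with Benjamini-Hochberg adjustment over the 40 pairs. The ratio changed in 30 of 40 pairs, with a median size of 0.21 and a largest size of 0.77 over all pairs. In the larger families the same copy enters several pairs, so the 40 pairs are not separate observations. Pairs of other loci were not tested, so how often unrelated loci would pass is not known. For estradiol against solvent 0 of 40 pairs passed in amiR-TOR and 0 of 40 in Col-0, with 9 pairs in each at an unadjusted p under 0.05. The estradiol tests rest on 12 libraries each and cannot give a p below 0.005, where the test for IAA can reach 1.25e-05. After adjustment over the 40 pairs a single pair at that floor could not pass. The estradiol counts thus do not show that the copies responded equally to estradiol.

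**Figure D5:**
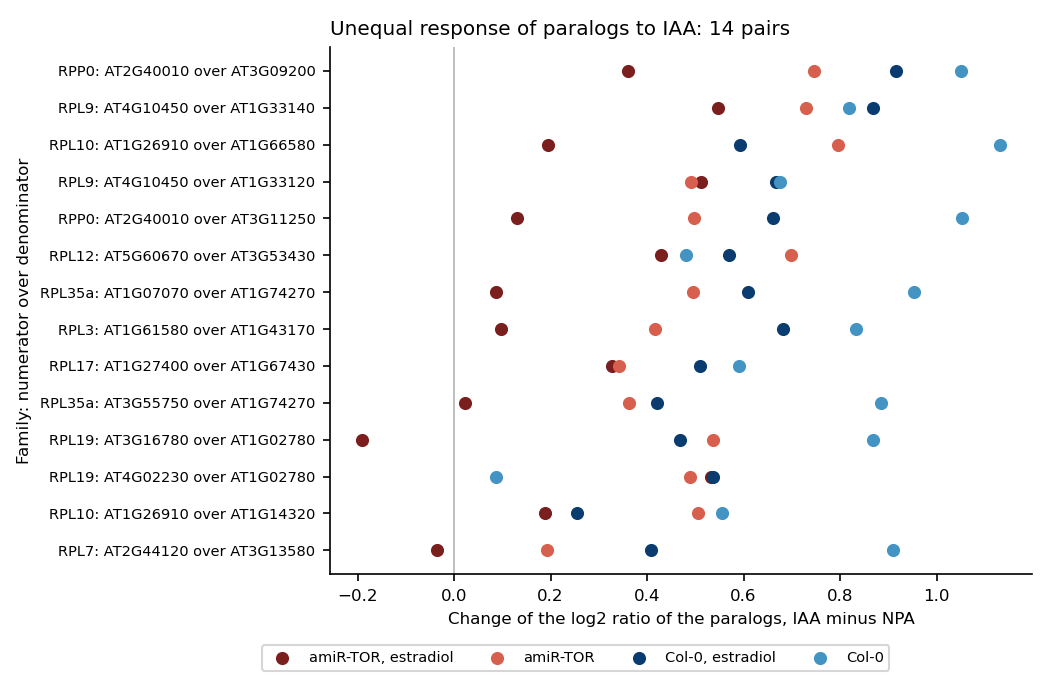
Change of the log2 ratio of 2 paralogs between IAA and NPA, for the 14 pairs with the largest mean change, with 1 point for each combination of genotype and estradiol. Pairs are written so that the mean change is positive, and 12 of 14 rows have all 4 points above 0, the exceptions being a pair of RPL19 and a pair of RPL7 in amiR-TOR with estradiol.

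The 6 largest changes lay in RPP0, RPL9, RPL10 and RPL12. The ratio of AT2G40010 to AT3G09200 (RPP0) was higher on IAA by 0.77 on average, by 0.36 in amiR-TOR with estradiol, 0.75 with solvent, 0.92 in Col-0 with estradiol and 1.05 with solvent (exact p = 1.25e-05, the smallest possible, adjusted p = 5.56e-05; higher in 12 of 12 IAA libraries, each set against the NPA library that carries its number). Library numbers did not pair the libraries in every comparison, so this and later counts out of 12 are only a description. In share of the RPP0 level per kb, AT2G40010 rose to 3.0% in Col-0 on IAA with solvent, against 1.5% on NPA. The abundant copy AT3G09200 had 994, 929 and 1139 CPM in Col-0 on IAA with solvent and 428, 337 and 396 CPM on NPA, and these do not overlap. The ratio of AT2G40010 to the third copy AT3G11250 was higher on IAA by 0.59 (adjusted p = 0.000133; 12 of 12).

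In RPL9 the ratio of AT1G33140 to AT4G10450 was lower on IAA by an average change of -0.74 (adjusted p = 5.56e-05; 12 of 12), and that of AT1G33120 to AT4G10450 changed by -0.59 (adjusted p = 5.56e-05; 12 of 12). AT1G33140 had 557, 328 and 441 CPM in Col-0 on IAA with solvent and 217, 146 and 206 CPM on NPA, again with no overlap. AT4G10450 gained share in all 4 settings, amiR-TOR with estradiol included: its share of the RPL9 level there was 16.6% on IAA and 12.1% on NPA. These shares may be too high, since reads that fit both other copies may be missing from their counts. In RPL10 the ratio of AT1G26910 to AT1G66580 was higher by 0.68 (adjusted p = 0.000115; 11 of 12). AT1G26910 had 83.1, 54.9 and 76.0 CPM in Col-0 on IAA with solvent and 21.1, 14.5 and 21.9 CPM on NPA, and these do not overlap. In RPL12, which sits at the stalk base, the ratio of AT3G53430 to AT5G60670 changed by -0.54 (adjusted p = 5.56e-05; 12 of 12). AT3G53430 had 742, 464 and 635 CPM in Col-0 on IAA with solvent and 365, 221 and 278 CPM on NPA. AT5G60670 had 286, 190.3 and 249.1 CPM on IAA and 119, 56.6 and 76.4 CPM on NPA. Both are separate between the treatments.

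Both RPL4 copies kept nearly the same ratio, with a change of -0.15 that was uniform enough to pass (adjusted p = 5.56e-05; 12 of 12). Pairs that did not pass include the RPL8 pair AT2G18020 and AT4G36130 (-0.03, adjusted p = 0.539) and the RPL24 pair AT2G36620 and AT3G53020 (0.04, adjusted p = 0.494). In 1 pair of RPL19 the sign differed between settings. The ratio of AT3G16780 to AT4G02230 (RPL19) changed by 0.78 in Col-0 with solvent and by -0.72 in amiR-TOR with estradiol, with a mean of 0.01 (adjusted p = 0.938). Of the 22 families with paralogs, the copy with the lowest mean level per kb had the largest rise on IAA in Col-0 with solvent in 13. The most abundant copy had it in 7. The 13 were 6 of the 13 families with 2 loci and 7 of the 9 with 3. In amiR-TOR with estradiol the scarcest copy had the highest log2 fold change in 14 families and the most abundant in 7. The 14 were 8 of the 13 families with 2 loci and 6 of the 9 with 3. A link between level and rise was not tested. The scarcest copy was found with the same libraries, so this is a description.

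The sequences around the starts of 3 pairs of paralogs with unequal responses are shown to compare their promoters, with the copy that gained share on IAA above its paralog. They run from 120 bases before to 30 after the annotated start, read from TAIR10.1 (RefSeq) on the strand of the gene, 5′ to 3′. Capitals mark a telo box (AAACCCTA) or a site II element (TGGGCC or TGGGCT), each searched on both strands. These are known from plant ribosomal protein promoters.
AT2G40010 (RPP0), chr2:16710743-16710892, minus strand: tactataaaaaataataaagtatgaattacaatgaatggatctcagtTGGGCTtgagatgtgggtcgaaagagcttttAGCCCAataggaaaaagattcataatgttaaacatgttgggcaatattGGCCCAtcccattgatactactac
AT3G09200 (RPP0), chr3:2825212-2825361, minus strand: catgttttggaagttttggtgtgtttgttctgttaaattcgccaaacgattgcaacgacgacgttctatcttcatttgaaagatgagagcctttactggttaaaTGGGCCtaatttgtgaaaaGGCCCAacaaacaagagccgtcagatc
AT4G10450 (RPL9), chr4:6464529-6464678, minus strand: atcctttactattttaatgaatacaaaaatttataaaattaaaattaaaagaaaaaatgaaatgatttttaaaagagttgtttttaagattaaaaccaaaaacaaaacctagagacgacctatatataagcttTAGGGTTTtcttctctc
AT1G33140 (RPL9), chr1:12023105-12023254, plus strand: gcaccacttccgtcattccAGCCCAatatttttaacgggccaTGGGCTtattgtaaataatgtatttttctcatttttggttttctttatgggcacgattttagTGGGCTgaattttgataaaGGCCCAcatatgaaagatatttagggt
AT1G26910 (RPL10), chr1:9321530-9321679, plus strand: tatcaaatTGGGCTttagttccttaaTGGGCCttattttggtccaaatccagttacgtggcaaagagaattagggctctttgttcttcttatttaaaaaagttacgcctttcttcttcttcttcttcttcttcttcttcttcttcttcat
AT1G66580 (RPL10), chr1:24838970-24839119, plus strand: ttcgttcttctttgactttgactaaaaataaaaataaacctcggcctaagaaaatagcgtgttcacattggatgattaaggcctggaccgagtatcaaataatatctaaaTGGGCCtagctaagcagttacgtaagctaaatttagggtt
These windows hold 3 site II elements in AT2G40010 and 2 in AT3G09200, and 1 telo box in AT4G10450 against 4 site II elements in AT1G33140. AT1G26910 holds 2 site II elements and AT1G66580 holds 1. In AT1G33140 and AT1G66580 a further telo box runs past the end of the printed window and is not in capitals.

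Over the longer window of 250 bases before to 50 after the start, 28 of the 59 loci (47.5%) held a telo box, against 6.22% of 27443 protein-coding genes, and 51 (86.4%) held a site II element, against 21.7%. Both were present in 24 of 59 loci (40.7%), against 2.2%. The 2 motifs overlapped in 0 of the 59 windows, and site II matches overlapped each other in 1. The median log2 fold change on IAA in Col-0 with solvent was 1.38 for the 28 loci with a telo box and 1.49 for the 31 without, and in amiR-TOR with estradiol it was 0.02 and 0.01. For the 51 loci with a site II element and the 8 without, the medians were 1.45 and 1.43 in Col-0 with solvent, and 0.01 and 0.10 in amiR-TOR with estradiol. These differences were not tested. A match is a run of letters and was not tested as a binding site.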

How the data were processed

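The deposited files hold, for each library, read counts per gene that the authors made in 3 columns for the strand settings. The submitters' processing notes name STAR 2.5.2b, the build TAIR10 and DESeq2. The column for reads of the reverse strand was used, which held 95.4% to 96.3% of the reads assigned on either strand. Gene models and promoter sequences came from RefSeq's TAIR10.1. Of the per-sample columns, 0 belonged to other samples.

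Counts of 24 libraries were fitted together with edgeR 4.0.16 in R 4.3.3 (TMM scaling, filterByExpr, quasi-likelihood test, 1 coefficient per group). This left 21290 loci, and p-values were adjusted over all of them by the Benjamini-Hochberg method at a threshold of 0.05. There were 12 comparisons of 2 groups and 5 interactions. SE is the log2 fold change divided by the square root of its F value. Comparisons that share a group are not independent. The log2 ratio of paralogs in a library used both counts plus 0.5, each per exonic length. The fit and the permutation test were tested on simulated data. Alternatives were RLE scaling, TMM without the 59 loci, no filter, counts without regard to strand, a term for libraries of high unmapped share, a replicate block, only the groups compared, each library left out, and DESeq2 1.42.0.

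The loci given in full are, for each comparison, up to 3 called loci with the largest rise and up to 3 with the largest fall, the loci of the 6 paralog pairs with the largest change, and the 3 highest and 3 lowest by level per kb. The results of 1 family are not reported by name here. The members, lists and tests were chosen with earlier results of these data known.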

Additional observations from a re-analysis of the deposited data

Results flagged for a closer look

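The IAA response differed between estradiol and solvent within each genotype, by the test of the interaction (edgeR quasi-likelihood test). In amiR-TOR 54 of 59 loci were called, all with a smaller response under estradiol, beside 7.58% of all tested loci called lower. The 54 were led by AT3G16780 (RPL19) at -1.38, AT2G36620 (RPL24) at -1.27 and AT2G40010 (RPP0) at -1.26 on the log2 scale. In Col-0 39 of 59 were called, beside 6.73% of all tested loci called lower, and 24 without replicate 1 on IAA with solvent. The 39 were led by AT1G26910 (RPL10) at -0.92, AT3G55750 (RPL35a) at -0.91 and AT3G16780 at -0.89. The NPA groups enter these values too: levels on NPA were higher with estradiol in both genotypes.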

How the results depend on the processing

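Without 1 library at a time, called loci for IAA numbered 1 to 4 in amiR-TOR with estradiol, 57 to 59 with solvent, 55 to 58 in Col-0 with estradiol and 59 to 59 with solvent. For estradiol they numbered 2 to 4 (IAA) and 47 to 57 (NPA) in amiR-TOR, and 0 to 0 (IAA) and 32 to 50 (NPA) in Col-0. For genotype they numbered 10 to 32 (IAA with estradiol), 3 to 20 (IAA), 16 to 47 (NPA with estradiol) and 4 to 36 (NPA). The interaction of IAA and estradiol had 44 to 55 in amiR-TOR and 24 to 51 in Col-0; the other interactions had 0 to 0. With a term for libraries of high unmapped share the counts were 22 (estradiol, amiR-TOR on IAA), 38 (genotype, NPA) and 20 (genotype, IAA with estradiol). Without those 5 libraries, a setting chosen after seeing the data, they were 1 (IAA, amiR-TOR with estradiol), 10 (estradiol, amiR-TOR on IAA), 36 (genotype, NPA) and 7 (genotype, IAA with estradiol). Fits of only the groups compared gave 4 (IAA, amiR-TOR with estradiol), 8 (estradiol, amiR-TOR on IAA), 6 (genotype, NPA), 4 (genotype, IAA) and 21 (interaction, Col-0). RLE size factors gave 11 for genotype on IAA, and DESeq2 gave 20 there, 14 for estradiol in amiR-TOR on IAA and 1 for genotype and estradiol on NPA. The cause of these shifts was not tested. The median in amiR-TOR with estradiol was 0.01 with TMM and -0.05 with RLE size factors, so its sign depends on the scaling. Paralog ratios on IAA passed in 25 to 29 of 40 pairs without 1 replicate number, and in 29 to 30 under the other settings. Equal replicate numbers did not pair the libraries in every comparison (correlations of deviations -0.38 to 0.31). For IAA in Col-0 with solvent all were above 0 (0.26, 0.31 and 0.04), and in most other comparisons some were below 0. A replicate block gave 3, 59, 58 and 59 loci for IAA and 4, 57, 0 and 46 for estradiol, in the order used above. In that order it gave 32, 7, 43 and 11 for genotype, and 55, 39, 0, 0 and 0 for the interactions. Among the 38 values of called loci with the largest rises and falls in the comparisons of 2 groups, none changed sign under these settings. Beside the fits without 1 library, 331 of their values kept the call and 11 lost it. In the fits without 1 library 204 kept it and 24, from 7 of the 38, lost it. Differences well within the spread of 3 libraries could not be detected at this number.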
